A study of Mus musculus with 2 samples.

Results

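Chromatin regulators are a set of 55 genes that remodel nucleosomes, add or remove marks on histones, or write and erase DNA methylation, and they include Chd7 and the Polycomb genes. They were chosen by name, and their values were read from probe sets that name 1 gene only. All 55 of the 18194 genes named in this way had at least 1 probe set, 129 probe sets in all, and 54 could be measured. The samples were 2 cell populations sorted by fluorescence from the otocyst, the epithelial vesicle that becomes the inner ear, of mouse embryos at E10.5 heterozygous for the transgene Tg(ETAR-EGFP)14Imeg. EGFP-positive cells were on 1 array and EGFP-negative cells on the other, so both populations carry the transgene and neither has a replicate. Per the labels, EGFP is found chiefly in the ventral and dorsomedial otocyst and is missing from its dorsolateral part. The labels do not state how many embryos were pooled.

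CHD, ISWI and SWI/SNF proteins use ATP to slide or evict nucleosomes, and Polycomb complexes keep developmental genes silent by methylating and ubiquitinating histones. Chd7 is the gene mutated in most people with CHARGE syndrome, in which the semicircular canals are malformed, and mice with 1 working copy have inner ear defects and a circling behaviour. Polycomb genes are best known for keeping Hox genes off in the wrong body regions, and histone acetyltransferases and deacetylases set how accessible a gene is.

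Each value is a MAS5 signal, a linear intensity per probe set, and each array had been scaled to a common mean. A floor was set at the 40th percentile of each array, 10.4 for EGFP-positive and 12.4 for EGFP-negative cells, and the highest of 27 bacterial control probe sets read 12.3 on the EGFP-positive and 9.0 on the EGFP-negative array. Each gene was read from the probe set with the highest mean signal, and the log2 ratio is EGFP-positive over EGFP-negative, so a positive ratio means a higher signal in EGFP-positive cells. A number in brackets after a pair of signals is their log2 ratio. With 1 array a population no p-value exists, and every statement describes these 2 libraries. Log2 ratios from different probe sets of the same gene varied with an SD of 0.315 over 5640 genes, and 0.249 where the mean signal was at least 200. It covers neither embryos, sorts nor hybridisations. Markers of epithelium summed to a signal of 10468 in EGFP-positive cells against 4917.5 in EGFP-negative cells, whereas those of mesenchyme summed to 411.0 in EGFP-positive against 6074 in EGFP-negative cells. Those of erythroid cells summed to 2997 in EGFP-positive against 21349 in EGFP-negative cells. Those of hindbrain neuroepithelium summed to 54.4 in EGFP-positive against 2560 in EGFP-negative cells. The EGFP-negative array thus held much signal from cells outside the otic epithelium. The ratios therefore do not compare regions of the otic epithelium alone. A higher signal in such bulk samples cannot tell more cells of a type from more RNA per cell.

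Most chromatin regulators were at similar signals in both populations, and so were most genes of similar brightness. None of the 54 measured members was 2-fold or more above the other population in either direction. Of the 13363 measured genes, many of them dim, 2.90% passed that limit towards EGFP-positive and 7.63% towards EGFP-negative cells. At 1.5-fold, 4 members were higher in EGFP-positive cells (7.41%, against 7.84% of all measured genes), namely Hdac6, Kdm6b, Chd7 and Cbx2. On the same limit 2 members were higher in EGFP-negative cells (3.70%, against 14.5% of all measured genes), Chd5 and Smarca2. The share in EGFP-positive cells is thus near that of all genes. After the arrays were centred on 18 hybridisation controls, spiked transcripts of known amount, 2 members passed 1.5-fold towards EGFP-positive cells (3.70%, against 4.48% of all measured genes) and 5 towards EGFP-negative cells (9.26%, against 22.2%). Chd7 and Cbx2 no longer passed there, whereas Chd3, Hdac9 and Tet2 did, towards EGFP-negative cells.

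The log2 ratios of the 52 members above the floor in both arrays ran from -0.71 to 0.98. Over the 54 measured members, of which Chd5 and Tet3 have only a bound, the median was 0.10, beside 0.0032 for all measured genes, and their interquartile range was 0.30 against 0.53. Of the 54, 38 (70.4%) had a ratio above 0, beside 50.2% of all measured genes, and 38 lay within 1 probe-set SD of 0. The set of all genes includes many dim ones. Among genes above the floor in both arrays with a mean signal of at least 100, a limit chosen after seeing the data, 75.6% of 41 members and 59.5% of 6846 genes had a ratio above 0. In that class the interquartile ranges were 0.31 and 0.35, and 87.8% of members and 87.9% of genes lay within 1.5-fold. Members were thus about as even as other genes that bright. No member passed 2-fold (2.53% of genes did towards EGFP-positive and 2.72% towards EGFP-negative cells). Differences of 1.5-fold were seen for 4 members (9.76%, against 6.34% of genes) towards EGFP-positive cells. Towards EGFP-negative cells 1 member passed 1.5-fold (2.44%, against 5.76%). Centring on hybridisation controls moved every log2 ratio down by 0.23, which put the members' median at -0.13, that of all genes at -0.23 and 16 members above 0. Quantile normalization left 35 members above 0.

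**Figure D1:**
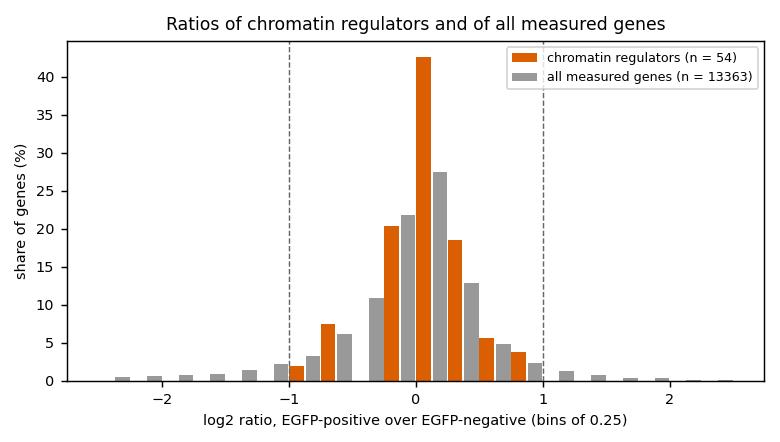
Share of genes (%) by log2 ratio of EGFP-positive over EGFP-negative in bins of 0.25, for the 54 measured chromatin regulators (orange) and all 13363 measured genes (grey); genes beyond 2.5 either way are not drawn and the dashed lines mark 2-fold. No chromatin regulator lies past a dashed line, and 42.6% of them, against 27.5% of all genes, fall in the bin from 0 to 0.25.

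Promoter sequence was described because the rule did not use it. RefSeq windows of 300 bases (250 before and 50 after the start, GRCm38.p6) were matched for 46 of the 55 members, taking the first window listed for a gene. The 9 without a window were Chd1, Chd2, Chd3, Chd7, Arid2, Cbx2, Kdm6b, Hdac1 and Hdac3. The matched windows held a median of 29.5 CpG dinucleotides and 66.8% G and C, against 20 and 61.0% in 10770 measured genes with a window. Members were also brighter, with a median mean signal of 324 against 105 over measured genes. The windows were not compared at equal signal. At least 15 CpG were present in 40 members (87.0%, against 68.5% of measured genes). The motif GGGCGG, a GC box read on both strands, was in 84.8% of member windows and 63.3% of measured genes, and TATAAA was in 4.35% and 7.49%. CCAAT was found in 34.8% and 38.4%, and CACGTG in 13.0% and 9.90%. GC boxes contain a CpG, so these counts overlap. A match is no more than these letters in the window.

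The windows of 4 members are given for the range of this feature and for the members with the highest and lowest ratio among those above the floor in both arrays. CpG dinucleotides are in capitals. Hdac6 (chrX:7947840-7948139, minus strand, 20 CpG) and Smarca2 (chr19:26604910-26605209, plus strand, 29 CpG) differed by 1.5-fold or more in opposite directions, Tet2 (chr3:133544341-133544640, minus strand) had the most CpG of the member windows, 57, and Hdac9 (chr12:34917046-34917345, minus strand) had 0.
Hdac6: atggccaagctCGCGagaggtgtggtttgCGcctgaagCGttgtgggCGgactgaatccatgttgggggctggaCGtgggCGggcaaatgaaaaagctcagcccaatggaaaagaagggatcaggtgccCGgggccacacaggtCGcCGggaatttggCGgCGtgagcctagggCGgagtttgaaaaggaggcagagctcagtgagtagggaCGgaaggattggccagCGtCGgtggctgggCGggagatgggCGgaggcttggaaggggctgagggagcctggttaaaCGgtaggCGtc
Smarca2: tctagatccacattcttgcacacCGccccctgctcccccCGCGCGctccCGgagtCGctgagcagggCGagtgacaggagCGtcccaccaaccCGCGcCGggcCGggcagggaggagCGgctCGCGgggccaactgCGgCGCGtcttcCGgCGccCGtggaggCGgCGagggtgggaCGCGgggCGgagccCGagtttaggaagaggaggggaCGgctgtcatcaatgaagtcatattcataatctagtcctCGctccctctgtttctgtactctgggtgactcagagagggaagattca
Tet2: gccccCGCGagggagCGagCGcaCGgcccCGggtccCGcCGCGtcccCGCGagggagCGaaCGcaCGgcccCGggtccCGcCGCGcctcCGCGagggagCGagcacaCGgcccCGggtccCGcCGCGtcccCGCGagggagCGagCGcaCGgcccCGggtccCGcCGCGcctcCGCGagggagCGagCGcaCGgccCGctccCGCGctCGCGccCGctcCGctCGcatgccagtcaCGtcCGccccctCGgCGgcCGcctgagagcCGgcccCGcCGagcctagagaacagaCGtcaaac
Hdac9: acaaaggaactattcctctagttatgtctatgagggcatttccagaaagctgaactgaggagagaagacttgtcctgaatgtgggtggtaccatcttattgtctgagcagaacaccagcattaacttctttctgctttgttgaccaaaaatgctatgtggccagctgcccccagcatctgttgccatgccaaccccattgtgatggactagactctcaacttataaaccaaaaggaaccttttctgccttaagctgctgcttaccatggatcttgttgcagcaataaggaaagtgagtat

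**Figure D2:**
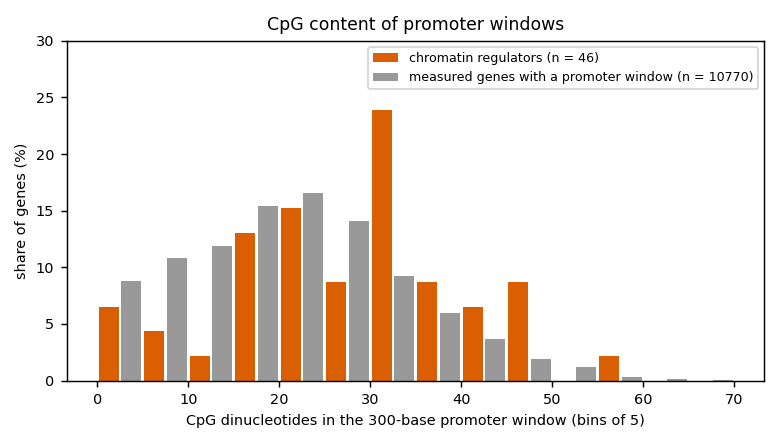
Share of genes (%) by number of CpG dinucleotides in the 300-base promoter window, in bins of 5, for 46 chromatin regulators (orange) and 10770 measured genes (grey). The commonest bin of the chromatin regulators is 30 to 34 CpG with 23.9% of them, and that of the measured genes is 20 to 24 with 16.6%.

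Among the 9 CHD remodellers as deposited, Chd7 was the member with the higher signal in EGFP-positive cells past 1.5-fold. All others but the dim Chd5 were within 1.5-fold. The group median was 0.08, or -0.15 when centred on hybridisation controls. Chd7 (gene 320790) had a signal of 347.2 in EGFP-positive cells against 209.7 in EGFP-negative cells, a log2 ratio of 0.73 or 1.66-fold. Its second probe set read 221.4 in EGFP-positive against 153.9 in EGFP-negative cells, a log2 ratio of 0.52, so both point the same way. Centred on hybridisation controls, Chd7 had 0.50 and fell short of 1.5-fold. Chd8, which binds beta-catenin and belongs to the same subfamily, had 342.6 in EGFP-positive against 334.7 in EGFP-negative cells (log2 ratio 0.03), with 4 probe sets from -0.41 to 0.41. The range of Chd7 thus lay above that of Chd8 by 0.11. Chd2 stood at 202.9 in EGFP-positive against 155.6 in EGFP-negative cells (0.38). Chd1, which travels with elongating RNA polymerase, had 142.0 in EGFP-positive against 134.0 in EGFP-negative cells, Chd6 150.7 in EGFP-positive against 140.0 in EGFP-negative cells, and Chd9 136.3 in EGFP-positive against 136.6 in EGFP-negative cells. These 3 signals were even between the populations.

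Chd3 and Chd4 are the alternative ATPases of the NuRD complex, which couples remodelling to deacetylation. Chd4 had 500.7 in EGFP-positive cells against 462.0 in EGFP-negative cells, a log2 ratio of 0.12, with 3 probe sets from -0.21 to 0.12. Chd3 had 83.6 in EGFP-positive against 120.3 in EGFP-negative cells, a log2 ratio of -0.53 from 1 probe set, which is 0.64 below Chd4. Centred on hybridisation controls, Chd3 had -0.76 and was past 1.5-fold. Chd5, a NuRD ATPase of neurons, was below the floor in EGFP-positive cells at 8.0, under the highest control probe set of that array, and read 18.6 in EGFP-negative cells, above the floor. No fold is given for it, and it is counted past 1.5-fold with its EGFP-positive signal raised to the floor. Markers of neurons, all 9 above the floor in both arrays, had a median log2 ratio of -0.52, with 1 past 2-fold towards EGFP-positive and 2 towards EGFP-negative cells. They summed to 2292 in EGFP-positive cells against 3491 in EGFP-negative cells. Of the 9 measured markers of hindbrain neuroepithelium, 8 were past 2-fold towards EGFP-negative cells and 7 were at the floor on the EGFP-positive array, with summed signals of 54.4 in EGFP-positive cells against 2560 in EGFP-negative cells. The part of neurons and neuroepithelium in the Chd3 and Chd5 signals was not tested.

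**Figure D3:**
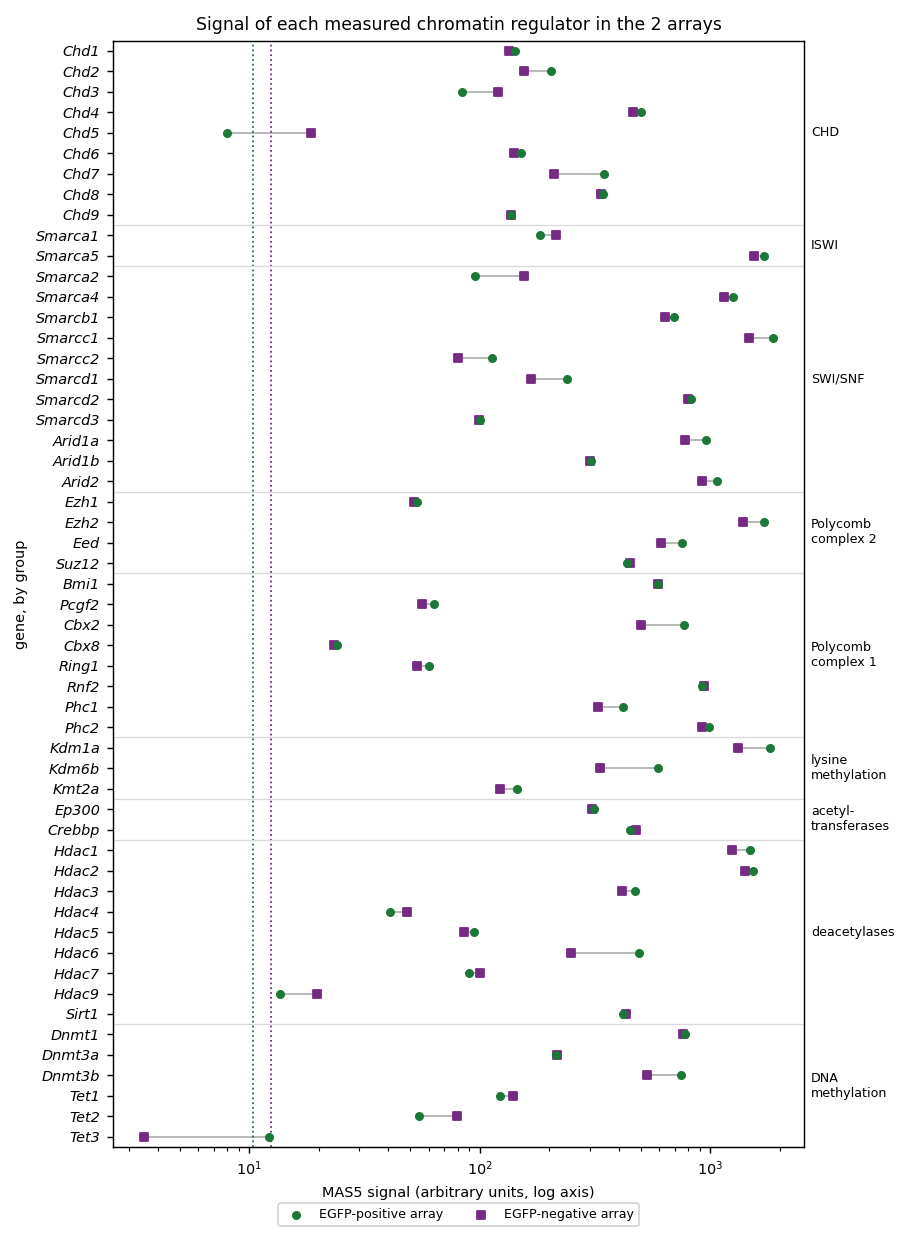
MAS5 signal (arbitrary units, log axis) of the 54 measured chromatin regulators in the EGFP-positive (green circles) and EGFP-negative array (purple squares), by group; dotted lines are the floors, 10.4 and 12.4. Most pairs of points nearly coincide, and the longest gaps among genes above both floors are those of Hdac6, Kdm6b, Chd7, Smarca2 and Cbx2.

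The ISWI ATPases, which space nucleosomes, were Smarca5 and Smarca1. Smarca5 had 1709 in EGFP-positive cells against 1553 in EGFP-negative cells (0.14), with 4 probe sets from -0.16 to 0.14. Smarca1 had 182.9 in EGFP-positive against 213.4 in EGFP-negative cells (-0.22). Neither passed 1.5-fold.

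The SWI/SNF or BAF complexes had a median log2 ratio of 0.13 over 11 members, or -0.10 when centred on hybridisation controls. As deposited, 10 of them were above 0 (90.9%, against 50.2% of all measured genes and 59.5% of those with a mean signal of at least 100). The exception was Smarca2, which encodes BRM. Smarca2 had 95.4 in EGFP-positive cells against 155.9 in EGFP-negative cells, a log2 ratio of -0.71 or 1.63-fold higher in EGFP-negative cells. Its dimmer probe set, at 12.6 in EGFP-positive against 14.8 in EGFP-negative cells, had -0.23, and the median over both probe sets, -0.47, was short of 1.5-fold. Smarca4, which encodes BRG1, the ATPase that takes the same place in the complex, had 1253 in EGFP-positive against 1145 in EGFP-negative cells (0.13) and a second probe set at 0.34. Centred on hybridisation controls, Smarca4 turned below 0 (-0.10). The ratios of the alternative ATPases differed by 0.84, and their probe-set ranges were 0.36 apart. That gap is set by the dim Smarca2 probe set, which lay next to the floor in both arrays. Markers of mesenchyme were high where Smarca2 was high, with 11 of 12 past 2-fold towards EGFP-negative cells and 4 at the floor on the EGFP-positive array. Their part in the Smarca2 ratio was not tested.

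The scaffold and accessory subunits, each read from its brightest probe set, all had ratios above 0 as deposited. The size differed between some alternative subunits, and 5 of the ratios turned below 0 when centred on hybridisation controls. Smarcc1, a core scaffold, had 1865 in EGFP-positive cells against 1469 in EGFP-negative cells, with 3 probe sets from 0.26 to 0.59. Smarcc2, the other scaffold, had 113.2 in EGFP-positive against 80.3 in EGFP-negative cells (0.50), within the range of Smarcc1. Smarcd1 had 238.5 in EGFP-positive against 167.3 in EGFP-negative cells (0.51). Its alternative Smarcd2 was even on its brightest probe set, at 827.3 in EGFP-positive against 797.0 in EGFP-negative cells (0.05). The 3 probe sets of Smarcd2 ran from 0.05 to 0.43. Smarcd3, the alternative of heart and muscle, was even at 100 in EGFP-positive against 98.8 in EGFP-negative cells (0.02). Arid1a, a DNA-binding subunit, had 961.5 in EGFP-positive against 775.7 in EGFP-negative cells (0.31), and its alternative Arid1b had 302.6 in EGFP-positive against 301.6 in EGFP-negative cells (0.0048). Arid2, which marks the PBAF form, had 1074 in EGFP-positive against 920.0 in EGFP-negative cells (0.22), with 4 probe sets from -0.35 to 0.22. Smarcb1, a core subunit, had 696.2 in EGFP-positive against 634.4 in EGFP-negative cells (0.13), but another of its probe sets read 382.1 in EGFP-positive against 177.2 in EGFP-negative cells, a log2 ratio of 1.11. The direction of Smarcb1 is shared by both and its size is not.

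The 4 core genes of Polycomb repressive complex 2, the histone methyltransferase, had a median of 0.17, or -0.06 when centred on hybridisation controls. Ezh2, its main catalytic subunit in dividing embryonic cells, had 1717 in EGFP-positive cells against 1383 in EGFP-negative cells, a log2 ratio of 0.31. Eed, which binds the methyl mark, had 749.8 in EGFP-positive against 610.3 in EGFP-negative cells (0.30). Suz12, the scaffold, had 436.3 in EGFP-positive against 447.7 in EGFP-negative cells (-0.04), but its 5 probe sets above the floor ran from -0.58 to 0.24. Ezh1, the alternative catalytic subunit, had 53.4 in EGFP-positive against 52.0 in EGFP-negative cells (0.04). These ratios were all below 1.5-fold, and those of Ezh2 and Eed were within the overall probe-set SD of 0.315 but beyond the 0.249 of bright genes.

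Polycomb repressive complex 1 reads that mark and ubiquitinates histones. Its 8 measured members had a median of 0.13, or -0.10 when centred on hybridisation controls. Cbx2, a chromodomain subunit that recognises the methyl mark, was the member past 1.5-fold. Cbx2 (gene 12416) had 769.6 in EGFP-positive cells against 498.5 in EGFP-negative cells, and its dimmer probe set read 63.6 in EGFP-positive against 41.1 in EGFP-negative cells, so that both had a log2 ratio of 0.63 (1.54-fold). Centred on hybridisation controls, Cbx2 had 0.40 and was short of 1.5-fold. Cbx8, another reader, had 23.9 in EGFP-positive against 23.2 in EGFP-negative cells (0.04). All 3 probe sets of Cbx7 were below the floor in both arrays, with signals of at most 5.5 in EGFP-positive cells against 8.2 in EGFP-negative cells.

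The ubiquitin ligase subunits and their partners were mostly even. Rnf2 had 922.7 in EGFP-positive cells against 937.9 in EGFP-negative cells (-0.02), and Ring1, its alternative, had 60.2 in EGFP-positive against 53.4 in EGFP-negative cells (0.17). Bmi1, which activates the ligase, had 594.7 in EGFP-positive against 592.6 in EGFP-negative cells (0.0051) and a second probe set at 0.21. Pcgf2, its close relative, had 63.2 in EGFP-positive against 55.9 in EGFP-negative cells (0.18). A dimmer probe set of Pcgf2 had -0.20, so its sign was not shared. Phc1, a polymerising subunit, had 419.0 in EGFP-positive against 324.5 in EGFP-negative cells (0.37), and Phc2 had 982.3 in EGFP-positive against 923.0 in EGFP-negative cells (0.09). Of these, Phc1 alone lay beyond 1 probe-set SD.

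The 3 enzymes of histone lysine methylation had the highest group median, 0.47, which was still above 0 (0.24) when centred on hybridisation controls. With 3 genes this median is the value of Kdm1a. The 33 other measured genes of histone methylation, listed as related genes, had a median of 0.16. Kdm6b, a demethylase that removes the Polycomb mark, had 594.5 in EGFP-positive cells against 332.1 in EGFP-negative cells, a log2 ratio of 0.84 or 1.79-fold. A second probe set had 144.1 in EGFP-positive against 91.6 in EGFP-negative cells (0.65), but the third and dimmest had 29.8 in EGFP-positive against 56.0 in EGFP-negative cells (-0.91), the opposite way. Kdm1a, the demethylase LSD1, had 1818 in EGFP-positive against 1312 in EGFP-negative cells, and its 2 probe sets gave log2 ratios of 0.47 and 0.49. Kmt2a, the Trithorax-group methyltransferase MLL1 that opposes Polycomb, had 144.4 in EGFP-positive against 122.2 in EGFP-negative cells (0.24).

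The acetyltransferases Ep300 and Crebbp, coactivators of many transcription factors, were even as deposited on their brightest probe sets. Ep300 had 311.9 in EGFP-positive cells against 307.7 in EGFP-negative cells (0.02), and Crebbp had 446.8 in EGFP-positive against 475.0 in EGFP-negative cells (-0.09), with 3 probe sets from -0.09 to 0.36. The median over the Crebbp probe sets was 0.22. The group median was -0.03, or -0.26 when centred on hybridisation controls.

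Among the 9 deacetylases the median was 0.12, or -0.11 when centred on hybridisation controls, and Hdac6 stood highest of all 54 members. Hdac6 (gene 15185), a mainly cytoplasmic enzyme that deacetylates tubulin, had 490.4 in EGFP-positive cells against 248.9 in EGFP-negative cells, a log2 ratio of 0.98 or 1.97-fold, just short of 2-fold. It rests on 1 probe set. On the EGFP-positive array 11 of 12 epithelial markers were past 2-fold, and none of the 12 was at the floor in either array. The exception, Oc90, was higher in EGFP-negative cells, at 939.8 in EGFP-positive against 1405.7 in EGFP-negative cells (-0.58). The part of epithelial cells in the ratios of Hdac6, Kdm6b, Chd7 and Cbx2 was not tested. The nuclear enzymes of the corepressor complexes lay within 1.5-fold. Hdac1 had 1482 in EGFP-positive against 1246 in EGFP-negative cells (0.25), and its close relative Hdac2 had 1533 in EGFP-positive against 1413 in EGFP-negative cells (0.12) with other probe sets at -0.13 and -0.21. Hdac3, the enzyme of the nuclear receptor corepressors, had 469.3 in EGFP-positive against 412.1 in EGFP-negative cells (0.19). Sirt1, an NAD-dependent deacetylase, had 416.9 in EGFP-positive against 430.8 in EGFP-negative cells (-0.05).

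None of the deacetylases that shuttle between nucleus and cytoplasm passed 1.5-fold as deposited. Hdac4, which restrains cartilage maturation, had 40.8 in EGFP-positive cells against 48.2 in EGFP-negative cells (-0.24), with 3 probe sets from -0.32 to 0.57. Hdac5 had 94.4 in EGFP-positive against 85.1 in EGFP-negative cells (0.15). Hdac7, known for its part in endothelial integrity, had 89.3 in EGFP-positive against 99.8 in EGFP-negative cells (-0.16) with a second probe set at 0.09, so its ratios lay on both sides of 0. All 10 endothelial markers were past 2-fold towards EGFP-negative cells, with summed signals of 79.5 in EGFP-positive cells against 1621 in EGFP-negative cells. Hdac9 was next to the floor at 13.6 in EGFP-positive against 19.7 in EGFP-negative cells (-0.53). Centred on hybridisation controls, Hdac9 had -0.76 and was past 1.5-fold.

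The 6 DNA methylation enzymes had a median of -0.01, or -0.24 when centred on hybridisation controls, and held members on both sides. Dnmt3b, a de novo methyltransferase of the early embryo, had 744.6 in EGFP-positive cells against 531.4 in EGFP-negative cells, and its 2 probe sets had log2 ratios of 0.49 and 0.43. Dnmt3a, the other de novo enzyme, was even on its brightest probe set, at 214.6 in EGFP-positive against 215.4 in EGFP-negative cells, but its other 4 probe sets had -0.37, -0.50, -0.70 and -0.98. The highest Dnmt3a ratio thus lay 0.43 below the lowest of Dnmt3b, and the median over Dnmt3a probe sets was -0.50. Dnmt1, the maintenance enzyme, had 774.1 in EGFP-positive against 759.8 in EGFP-negative cells (0.03), with 3 probe sets from -0.09 to 0.03.

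The Tet enzymes oxidise methylated cytosine. Tet2, known best as a regulator of blood cells, had 54.7 in EGFP-positive cells against 79.6 in EGFP-negative cells (-0.54), and its second probe set had 32.1 in EGFP-positive against 70.3 in EGFP-negative cells, a log2 ratio of -1.13. Tet2 was past 1.5-fold towards EGFP-negative cells in 3 other settings, at -0.77 when centred on hybridisation controls, -0.84 as the median over probe sets and -0.79 from their mean signal. Tet1 had 122.4 in EGFP-positive against 139.6 in EGFP-negative cells (-0.19), and each of its 3 probe sets above the floor had a ratio below 0. Tet3 read 12.2 in EGFP-positive against 3.5 in EGFP-negative cells, below the highest control probe set of the EGFP-positive array, and no fold is given. All 9 measured markers of erythroid cells were past 2-fold towards EGFP-negative cells, with summed signals of 2997 in EGFP-positive cells against 21349 in EGFP-negative cells and 5 at the floor on the EGFP-positive array. So were all 9 measured markers of leukocytes, whose list summed to 80.4 in EGFP-positive against 1235 in EGFP-negative cells, with 6 at the floor on the EGFP-positive array. The part of blood cells in the Tet2 and Dnmt3a ratios was not tested.

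**Figure D4:**
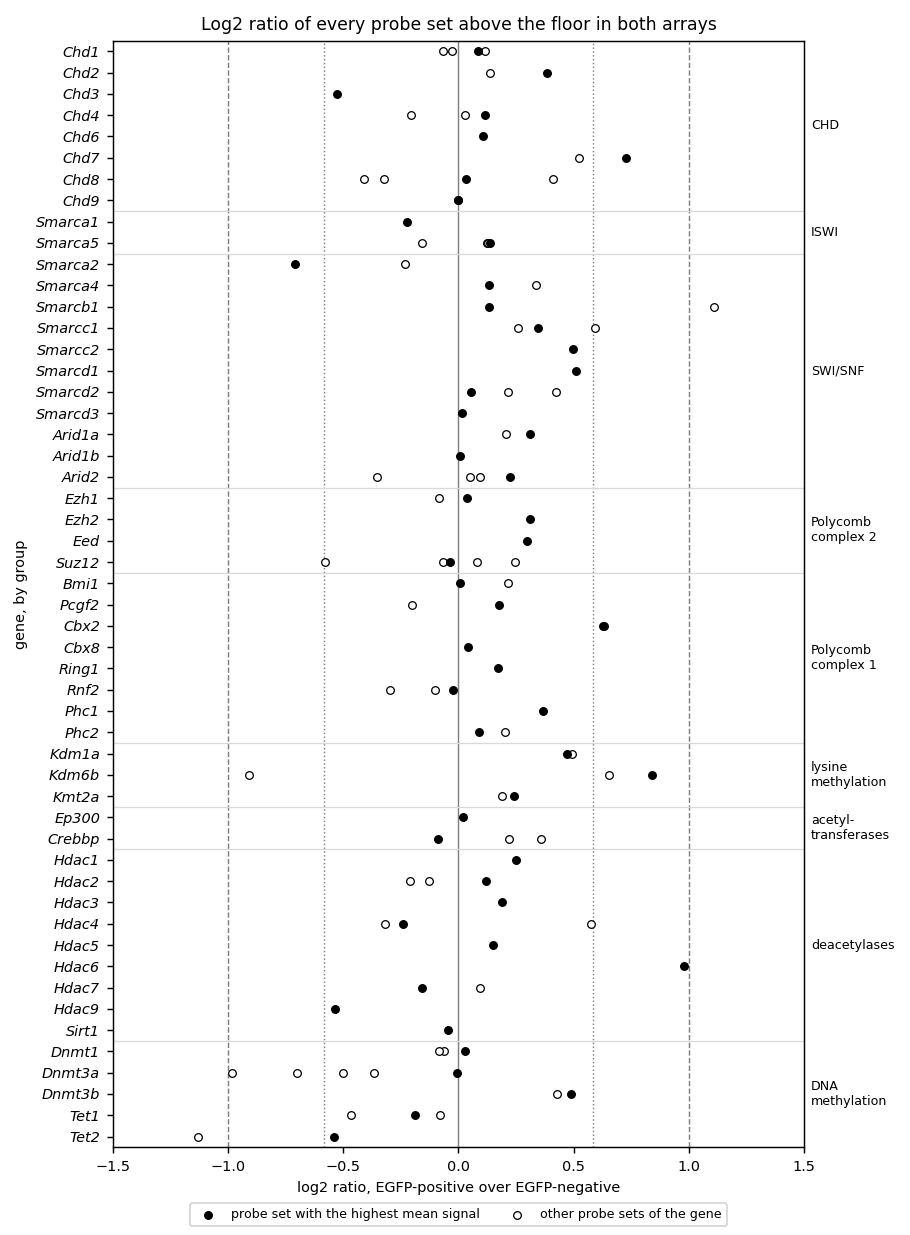
Log2 ratio of EGFP-positive over EGFP-negative for the 109 member probe sets above the floor in both arrays, by gene and group; filled points are the probe sets with the highest mean signal, dotted lines mark 1.5-fold and dashed lines 2-fold. Both probe sets of Cbx2, Kdm1a, Chd7 and Dnmt3b lie to the right of 0, all 5 of Dnmt3a lie at or to the left of it, and those of Kdm6b and Smarcb1 are far apart.

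Over probe sets, 1 of the 109 was past 2-fold towards EGFP-positive cells (Smarcb1) and 1 towards EGFP-negative cells (Tet2), against 2.44% and 4.75% of 21413 probe sets. In 18 of the 33 members with several probe sets above the floor, every probe set had the same sign (54.5%, against 54.9% of 5640 genes). The members' share was close to that of genes at large.

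Other chromatin genes, among them further subunits of the same complexes, were listed as well, 132 in all. Of these, 10 had no probe set naming them alone and 2 were at the floor in both arrays. The 120 measured had a median log2 ratio of 0.10 (-0.13 when centred on hybridisation controls). As deposited, 80 were above 0 (66.7%, against 50.2% of all measured genes and 59.5% of those with a mean signal of at least 100). None passed 2-fold towards EGFP-positive cells (2.90% of all measured genes), and 6 did towards EGFP-negative cells (5.00%, against 7.63%). All 6 had a mean signal under 100. Bcl11a and Bcl11b, zinc finger proteins found in BAF complexes and active in blood and neurons, were farthest apart. Bcl11a had 17.0 in EGFP-positive cells against 78.9 in EGFP-negative cells (-2.21), and Bcl11b had 23.9 in EGFP-positive against 84.3 in EGFP-negative cells (-1.82).

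The other 4 were Dpf1, a BAF subunit of neurons, at 21.3 in EGFP-positive cells against 44.0 in EGFP-negative cells (-1.05), Phf1, a Polycomb accessory gene, at 18.9 in EGFP-positive against 39.5 in EGFP-negative cells (-1.06), its relative Phf19 at 5.2 in EGFP-positive against 26.2 in EGFP-negative cells, and Gadd45b, a stress gene linked to demethylation, at 19.1 in EGFP-positive against 43.8 in EGFP-negative cells (-1.20). Another probe set of Gadd45b had 0.87. At 1.5-fold the genes named after their values were seen were Mtf2, a Polycomb accessory subunit, at 1170 in EGFP-positive against 736.5 in EGFP-negative cells (0.67), and Rcor2, a partner of Kdm1a, at 292.6 in EGFP-positive against 169.9 in EGFP-negative cells (0.78), both higher in EGFP-positive cells, and Mbd2, a methyl-CpG reader, at 140.5 in EGFP-positive against 220.8 in EGFP-negative cells (-0.65). At that limit 2 of the 120 (1.67%, against 7.84% of all measured genes) were higher in EGFP-positive and 7 (5.83%, against 14.5%) in EGFP-negative cells, none of them among the 33 measured genes of histone methylation.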

How the data were processed

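Gene expression was measured on 2 Affymetrix arrays, 1 for EGFP-positive and 1 for EGFP-negative cells, both labelled as otocyst. The authors' deposited values are intensities, 1 MAS5 signal for each of 45101 probe sets. MAS5 version 5.0 comes from the submitters' processing notes. The 2% trimmed mean was the same in both arrays. Detection calls and scans were not used here.

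Probe sets were named from the platform annotation, updated by gene identifier to the GRCm38.p6 RefSeq table: 34958 named 1 gene, 932 several and 9211 none. A gene at or below the floor in both arrays was left out, and a signal at the floor was raised to it. Members were named one by one, and related genes where they differed 2-fold. Members and lists were chosen with earlier results of these data known. Python 3.11.15, pandas 2.3.3 and numpy 2.4.6 were used. The ratio code was tested on simulated data. There were 9 alternative settings. Depth is not defined for arrays, and their number limits the precision.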

Additional observations from a re-analysis of the deposited data

How the results depend on the processing

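The log2 ratios of Chd7, Cbx2, Kdm6b, Hdac6 and Smarca2 kept their direction in all 9 other settings, and Chd5 in the 7 that gave it a value. Chd5 aside, the other floors and leaving out genes at a floor could not change these ratios, since the signals lie above every floor. Combining probe sets could not change Hdac6, which has 1. No setting read the opposing probe set of Kdm6b (-0.91) alone. A kept direction in such settings is therefore no separate support. Chd7 ran from 0.50 to 0.73, Cbx2 from 0.40 to 0.63, Kdm6b from 0.61 to 0.84, Hdac6 from 0.75 to 0.98, and Smarca2 from -0.94 to -0.47. With hybridisation controls as the centre, 2 members were 1.5-fold higher in EGFP-positive cells (4.48% of all genes were) against 5 in EGFP-negative cells (22.2%), 1 of them past 2-fold (Chd5, as were 1402 of all 13363 genes). Chd7 (0.50) and Cbx2 (0.40) fell short, and 22 members changed sign, since that setting subtracts 0.23 from every ratio. With the floor at the 20th percentile 1 member was past 2-fold in each direction, Tet3 and Chd5 (4.31% and 11.8% of all genes were). At the 60th percentile, without genes at a floor, and with 16 added in place of a floor, 1 member passed 1.5-fold towards EGFP-negative cells (9.58%, 11.2% and 8.58% of all genes did). Chd5 has no value in the first 2 of these and had -0.53 in the last. As the median ratio over probe sets, Smarca2 fell short of 1.5-fold (-0.47) and Tet2 passed it (-0.84). Of all genes past 2-fold, 27.6% were higher in EGFP-positive cells, against 37.9% after quantile normalization and 14.1% with hybridisation controls as the centre. The choice of probe set mattered most for Dnmt3a (-0.41 and -0.50 against -0.0054) and Smarcb1 (0.62 against 0.13). The probe-set SD ran from 0.23 to 0.44. No paired analysis was possible because each group has 1 array.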
